A study of Mus musculus with 12 samples.

Results

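The proteasome is the protease that degrades ubiquitin-tagged proteins in the cytosol and nucleus. Its barrel-shaped core particle is built of alpha rings, which gate the entrance, and beta rings, which hold the catalytic subunits Psmb5, Psmb6 and Psmb7. A regulatory particle caps the core, binds and deubiquitinates the substrate, and unfolds it with a ring of ATPases. The genes for these constitutive subunits are the subject here. They were taken as all protein-coding rows of the deposited count table whose symbol begins with Psma, Psmb, Psmc or Psmd followed by a digit, without Psmb8, Psmb9 and Psmb10, the interferon-inducible catalytic subunits of the immunoproteasome. The rule took 37 of 54100 rows. Of these, 16 encode core subunits, 17 encode regulatory particle subunits and 3 encode assembly chaperones of the regulatory particle (Psmd5, Psmd9 and Psmd10). The remaining gene, Psmc3ip, encodes a meiotic recombination factor that shares only the name.

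RNA was measured in fibro-adipogenic progenitors (FAPs), Pdgfra-positive mesenchymal cells of the muscle interstitium that serve as a source of matrix, fat and regenerative signals. They were sorted from the plantaris, a calf muscle that grows when it is overloaded. The 4 groups of 3 libraries each were cdKO overload, cdKO sham, control overload and control sham, where cdKO mice carried Pdgfra-CreERT2 with Yap1 flox/flox and Taz flox/flox alleles and control mice carried Pdgfra-CreERT2 alone. Yap1 and Taz (gene symbol Wwtr1) are transcriptional co-activators restrained by the Hippo pathway, and both genotypes carried the Cre driver, which is confined to Pdgfra-expressing cells. Overload was set against sham operation within each genotype, and cdKO against control under each load. The labels state no age, time after surgery, Cre induction or number of animals. The labels do not tie libraries to individual mice, so p-values rest on the spread among libraries, and this spread may be technical.

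Each library came from 1000 sorted cells and held 336437 to 1564581 counts, so that 3 counts correspond to between 1.92 and 8.92 CPM. CPM are counts scaled so that each library sums to 1e6. Wwtr1 stood at 17.6 to 21.0 CPM in cdKO overload against 123 to 171 CPM in control overload, and at 25 to 38.2 CPM in cdKO sham against 99.5 to 123 CPM in control sham. It fell in cdKO under both loads (log2 fold change -2.78 ± 0.28 SE in overloaded and -1.74 ± 0.27 SE in sham muscle, edgeR quasi-likelihood adjusted p 1.83e-06 and 0.00733). Yap1 was also lower in every cdKO library than in the control libraries of the same load, with differences that did not pass (-0.85 ± 0.32 and -0.61 ± 0.30, adjusted p 0.586 and 0.999). Whether the 3′-tag reads lie inside the deleted exons is not known, so these values check the labels only in part. The 8 progenitor markers (Pdgfra, Ly6a, Cd34, Dcn, Gsn, Dpt, Col1a1 and Col3a1) summed to 70487 to 81087 CPM in cdKO overload against 77225 to 83435 CPM in cdKO sham, which overlapped, and to 50492 to 72068 CPM in control overload against 75310 to 86396 CPM in control sham, which did not. Pdgfra itself fell with overload in cdKO (-1.09 ± 0.26, adjusted p 0.0062). Leukocyte markers (7 genes) summed to 7.03 to 62.7 CPM, with Lyz2 at 0 in 3 groups, and muscle stem cell markers (4 genes) to at most 19.6 CPM, with Myod1 at 0 in both cdKO groups. Haemoglobin genes reached 276 CPM in a control overload library. Endothelial markers (5 genes) summed to 24.1 to 47.8 CPM in cdKO overload against 46.5 to 125 CPM in cdKO sham, and to 14.7 to 79.6 CPM in control overload against 89.4 to 134 CPM in control sham. Pericyte and smooth muscle markers (5 genes) summed to 63.0 to 69.4 CPM in cdKO overload against 64.7 to 96.1 CPM in cdKO sham, and to 59.8 to 81.3 CPM in control overload against 88.2 to 92.1 CPM in control sham. In control muscle the progenitor, endothelial and pericyte sums thus lay lower in all overloaded than in all sham libraries, and in cdKO they overlapped. The part of these shifts in the results was not tested. In bulk samples, fewer cells of a type and less RNA per cell cannot be told apart. The first principal component was taken over the 8161 genes with enough counts to be tested. On it, control overload replicate 1 (15.8) and cdKO overload replicate 2 (7.39) lay nearest to the sham libraries. The other 4 overloaded libraries lay at 32.6 to 61.1. Y-linked genes stood at 71.6 and 87.5 CPM in control overload replicates 2 and 3, against 124 to 315 CPM in the other 10 libraries.

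The promoters of 4 members are shown because the results turn on these genes: Psmd14 and Psmb3 rose with overload in both genotypes, and Psmb5 and Psmb6 encode catalytic subunits. Each window runs from 250 bases before to 50 bases after the start of the gene (RefSeq, build GRCm38.p6, written 5′ to 3′ on the strand of the gene). Capitals mark CCAAT, or its reverse complement, in the first pair and TGACNNNGC in the second pair. The first motif is the CCAAT box bound by NF-Y, and the second is the core of the antioxidant response element, to which Nfe2l1 and Nfe2l2 bind as dimers with small Maf proteins. In Psmd14 the 2 matches just after the start overlap each other on opposite strands. Psmd14 and Psmb3 lie at chr2:61711444-61711743 (plus strand) and chr11:97703184-97703483 (plus strand), and Psmb5 and Psmb6 at chr14:54617946-54618245 (minus strand) and chr11:70525107-70525406 (plus strand).
Psmd14: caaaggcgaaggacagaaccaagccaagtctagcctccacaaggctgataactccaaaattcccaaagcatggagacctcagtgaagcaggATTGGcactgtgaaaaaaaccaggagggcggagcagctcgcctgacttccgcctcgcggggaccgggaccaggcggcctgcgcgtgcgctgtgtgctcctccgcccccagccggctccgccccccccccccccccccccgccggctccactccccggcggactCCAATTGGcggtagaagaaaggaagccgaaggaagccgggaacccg
Psmb3: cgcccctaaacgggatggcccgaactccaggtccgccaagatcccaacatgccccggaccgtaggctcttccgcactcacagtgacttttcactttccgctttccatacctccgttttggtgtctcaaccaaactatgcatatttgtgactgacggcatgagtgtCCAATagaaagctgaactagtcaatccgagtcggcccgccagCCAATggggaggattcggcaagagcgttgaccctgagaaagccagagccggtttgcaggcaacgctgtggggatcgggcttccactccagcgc
Psmb5: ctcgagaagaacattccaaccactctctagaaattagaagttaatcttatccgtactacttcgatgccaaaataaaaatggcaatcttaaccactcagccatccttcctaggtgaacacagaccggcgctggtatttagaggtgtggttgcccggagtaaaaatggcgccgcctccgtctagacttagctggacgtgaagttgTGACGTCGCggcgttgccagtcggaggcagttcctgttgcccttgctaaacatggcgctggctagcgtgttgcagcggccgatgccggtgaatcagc
Psmb6: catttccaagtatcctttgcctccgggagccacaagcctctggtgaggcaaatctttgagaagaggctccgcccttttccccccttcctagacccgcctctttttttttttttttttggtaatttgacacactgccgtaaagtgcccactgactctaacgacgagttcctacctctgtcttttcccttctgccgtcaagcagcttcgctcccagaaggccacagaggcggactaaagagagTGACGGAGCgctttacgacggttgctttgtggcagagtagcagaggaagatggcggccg

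RefSeq windows were found for 30 of the 37 genes and searched on both strands. TGACNNNGC occurred in 5 of the 30 (16.7%) and in 14% of the promoters of all 27025 genes with a window. The 5 were Psmb5 at 47 bases before the start, Psmb6 at 9, Psmd9 at 31, Psmc6 at 227 and Psmd12 at 247. CCAAT occurred in 13 of 30 (43.3%) against 41.1% of all genes, and TATAAA in 3 of 30 (10%) against 15.7%. The shares of the proteasome genes were thus near those of all promoters, and these matches describe letters, not bound sites. The genes are scattered over 16 chromosomes, and the most on any chromosome was 7, on chromosome 11.

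Of the 37 genes, 32 had enough counts to be tested among 8161 genes. All 17 regulatory particle genes and all 3 chaperones were tested, and 12 of 16 core genes were. Psma8, a testis-specific alpha subunit, had 4 counts in all libraries together, and Psmb11, a catalytic subunit of the thymic cortex, had 11. Psmc3ip had 10. The catalytic genes Psmb5 and Psmb7 had 63 counts each and were not tested. Psma4 and Psmd10 passed the filter only because of their overloaded libraries, where all 6 exceeded its limit of 13.5 CPM, against 1 and 0 of the sham libraries, so a difference in these genes was favoured by the filter.

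Summed over each particle, proteasome RNA was higher in overloaded than in sham muscle in both genotypes. The 16 core genes together had 1473, 1401 and 1923 CPM in cdKO overload, against 893, 932 and 839 CPM in cdKO sham. In control mice they had 1503, 2199 and 1905 CPM under overload, against 789, 1071 and 832 CPM in sham muscle. The 17 regulatory genes had 1642, 1396 and 1907 CPM in cdKO overload against 974, 951 and 805 CPM in cdKO sham, and 1496, 2404 and 2106 CPM in control overload against 976, 998 and 921 CPM in control sham. All 6 overloaded libraries lay above all 6 sham libraries for either particle. The ratio of the group means was 1.80 for the core and 1.81 for the regulatory particle in cdKO, and 2.08 and 2.07 in control. Between genotypes the sums overlapped under either load, with cdKO over control ratios of 0.856 and 0.823 in overloaded muscle and 0.990 and 0.943 in sham muscle.

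**Figure D1:**
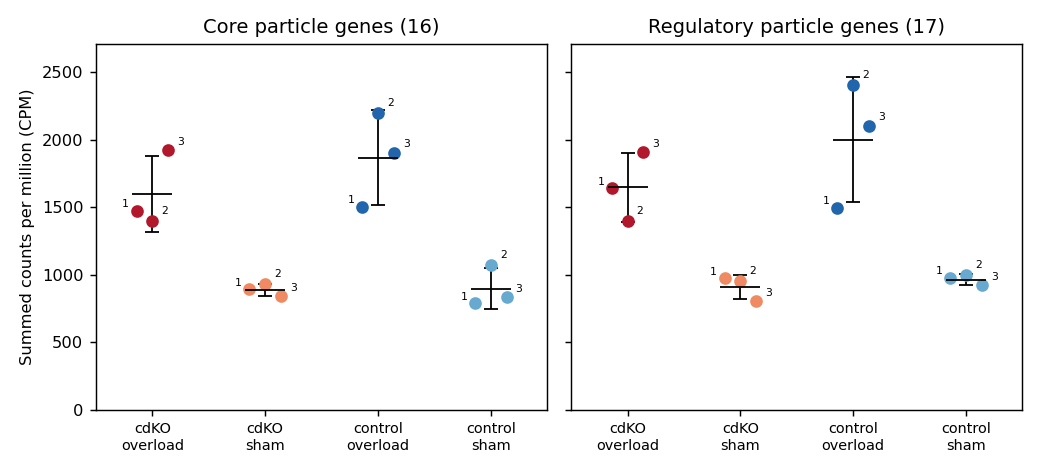
Summed CPM (linear axis from 0) of the 16 core genes and the 17 regulatory particle genes in each library; points are libraries numbered by replicate, and bars are the group mean ± SD (n = 3). All overloaded libraries lie above all sham libraries, at 1401 or more against 1071 or less for the core and at 1396 or more against 998 or less for the regulatory particle.

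The balance between the particles moved little. The count of core genes divided by that of regulatory genes was 0.897, 1.004 and 1.01 in cdKO overload, 0.917, 0.980 and 1.04 in cdKO sham, 1.004, 0.915 and 0.904 in control overload, and 0.808, 1.07 and 0.903 in control sham. The 4 groups overlapped, and the widest spread was within control sham, the group with the shallowest library. Exact 95% intervals, which cover counting error only, ran from 0.700 to 0.932 for the lowest ratio (control sham replicate 1) and from 0.973 to 1.18 for the highest (control sham replicate 2).

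In cdKO muscle, 9 of the 32 tested genes rose with overload and 0 fell (edgeR quasi-likelihood test, adjusted p under 0.05), against 6.37% of all tested genes that rose, 6.68% that fell and 13% that changed either way. The 9 were 5 of 12 core genes (Psma3, Psma7, Psmb2, Psmb3 and Psmb6) and 4 of 17 regulatory genes (Psmc1, Psmc5, Psmd1 and Psmd14). In control muscle, 17 of 32 rose and 0 fell, against 10.6% of all tested genes that rose, 11% that fell and 21.7% that changed either way. These were 7 of 12 core genes, 9 of 17 regulatory genes and 1 chaperone, Psmd10. Without Psma4 and Psmd10, whose difference the filter favoured, 9 of 30 rose in cdKO and 15 of 30 in control. The log2 fold change was above 0 for 31 of 32 genes in cdKO and for 32 of 32 in control, with a median of 0.78 in cdKO (all genes -0.02) and 0.94 in control (all genes -0.05). By particle, the medians were 0.91 for the core and 0.77 for the regulatory genes in cdKO, and 0.94 and 0.99 in control. Before adjustment, p was under 0.05 for 24 genes in cdKO and 27 in control. Of the 32 tested genes, 22 were higher in every overloaded than in every sham library in cdKO and 26 were in control, against 16.9% and 20.2% of all tested genes, and none was lower in this way. In both genotypes, the counts by sign, by unadjusted p and by separate libraries include Psma4 and Psmd10, whose rise the filter favoured. The medians over the 32 genes include them too.

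The counts depended on single libraries, while 31 or 32 of the 32 fold changes stayed above 0 with each library left out. In cdKO the count was 3 without cdKO overload replicate 3, 4 without cdKO overload replicate 1, 4 without cdKO sham replicate 3 and 15 without cdKO overload replicate 2. In control it was 11 without control overload replicate 2, and 7 when the share of Y-linked counts entered as a covariate.

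**Figure D2:**
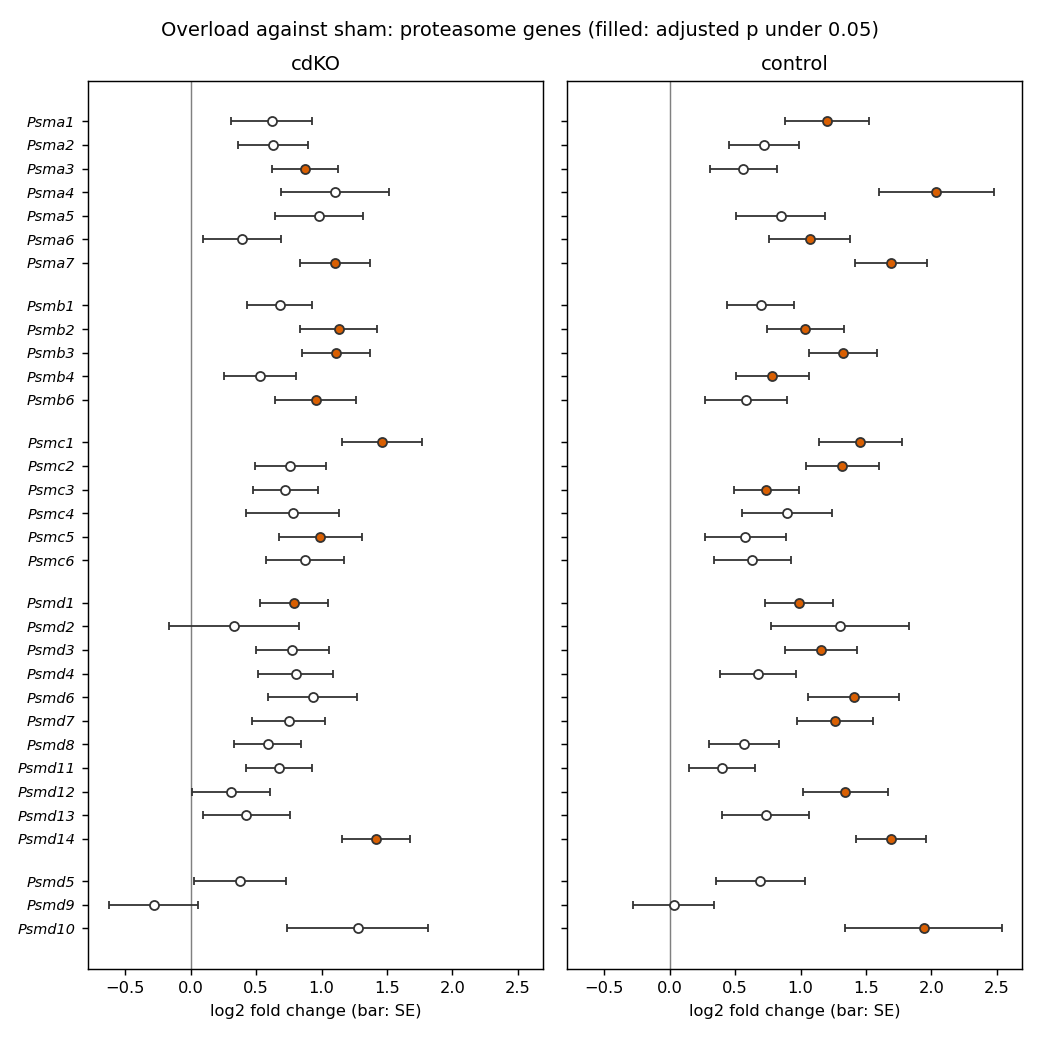
Log2 fold change (x axis, bars ± SE) of the 32 tested proteasome genes for overload against sham in cdKO (left) and control (right), grouped as alpha ring, beta ring, ATPases, non-ATPases and chaperones; filled points passed an adjusted p under 0.05 in edgeR. All points but Psmd9 in cdKO (-0.29) lie above 0, and 9 are filled in cdKO against 17 in control.

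The alpha ring forms the gate of the core and docks the regulatory particle. Among its 7 tested genes, 2 rose in cdKO and 4 in control, including Psma4, whose rise the filter favoured. Psma7, which encodes the alpha subunit of the gate-bearing ring known in yeast as Pre6, lies at chr2:180036374-180042433 on the minus strand (GRCm38). It had 256, 184 and 305 CPM in cdKO overload, against 83.0, 135 and 119.7 CPM in cdKO sham. In control mice it had 229, 387 and 398 CPM under overload, against 96.1, 99.5 and 107 CPM in sham muscle. The groups did not overlap in either genotype, and control overload replicate 1 was well below the other control overload libraries. Psma7 rose by 1.11 ± 0.27 SE on the log2 scale in cdKO and by 1.69 ± 0.28 SE in control (adjusted p 0.0074 and 9.87e-05).

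Psma4, a further alpha subunit, gave the highest fold change of all members in control muscle, from few counts. It had 26.0, 23.9 and 26.2 CPM in cdKO overload against 14.9, 10.8 and 8.93 CPM in cdKO sham. It had 27.1, 33.9 and 49.5 CPM in control overload against 6.70, 12.6 and 2.97 CPM in control sham, where the 3 libraries held 3, 10 and 1 counts. The groups were separate in both genotypes. It rose in control (2.04 ± 0.44, adjusted p 0.00166), while the value in cdKO was 1.1 ± 0.41 (adjusted p 0.0774). The filter favoured the separation and the rise of Psma4, as given above.

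Psma3, another alpha subunit of the ring, had 158, 161 and 189 CPM in cdKO overload against 99.6, 76.5 and 96.4 CPM in cdKO sham, without overlap. It had 110.1, 187 and 188 CPM in control overload against 96.1, 128 and 86.2 CPM in control sham, where control overload replicate 1 fell below the highest sham library. Psma3 rose in cdKO (0.87 ± 0.25, adjusted p 0.024) and did not pass in control (0.56 ± 0.26, adjusted p 0.118). Psma6 had 33.3, 50.3 and 58.8 CPM in cdKO overload against 28.2, 46.1 and 30.4 CPM in cdKO sham, and 57.6, 81.8 and 69.0 CPM in control overload against 26.8, 35.3 and 32.7 CPM in control sham. Its groups overlapped in cdKO (0.39 ± 0.30, adjusted p 0.435) and were separate in control, where it rose (1.07 ± 0.31, adjusted p 0.0142). Of the other alpha genes, Psma1 rose in control (1.20 ± 0.32, adjusted p 0.0086) and had 0.62 ± 0.31 in cdKO. Psma2 and Psma5 did not pass in either genotype, with log2 fold changes of 0.63 and 0.98 in cdKO and 0.72 and 0.85 in control.

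The beta ring holds the proteolytic sites. Psmb3, a structural beta subunit without a proteolytic site (chr11:97703399-97713500, plus strand), carried the pair of CCAAT letters shown above. It had 70.9, 104 and 88.2 CPM in cdKO overload against 39.8, 44.1 and 33.9 CPM in cdKO sham. It had 107, 148 and 128 CPM in control overload against 49.1, 54.2 and 41.6 CPM in control sham. Every overloaded library exceeded every sham library in both genotypes. Psmb3 rose by 1.11 ± 0.26 SE in cdKO and by 1.32 ± 0.26 SE in control (adjusted p 0.00592 and 0.000695). Psmb2, also structural, had 123, 99.4 and 117 CPM in cdKO overload against 66.4, 44.1 and 41.1 CPM in cdKO sham, and 77.9, 189 and 152 CPM in control overload against 67, 61.7 and 71.3 CPM in control sham. Its groups did not overlap, although control overload replicate 1 stood only slightly above the sham libraries. It rose in both genotypes (1.13 ± 0.29 in cdKO and 1.04 ± 0.29 in control, adjusted p 0.0121 in each). Psmb4 rose in control (0.78 ± 0.28, adjusted p 0.0441) and had 0.53 ± 0.27 in cdKO, and Psmb1 did not pass in either (0.68 in cdKO and 0.69 in control).

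Psmb6 encodes the caspase-like catalytic subunit and had a TGACNNNGC match just before its start. It had 116, 163 and 149 CPM in cdKO overload against 49.8, 98.1 and 64.3 CPM in cdKO sham. It had 110.1, 153 and 115 CPM in control overload against 96.1, 108 and 29.7 CPM in control sham, where replicate 3 held 10 counts. The groups were separate in both genotypes, by a narrow margin in control. Psmb6 rose in cdKO (0.96 ± 0.31, adjusted p 0.0432) and did not pass in control (0.58 ± 0.31, adjusted p 0.193).

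The other catalytic genes could not be read well from these counts. Psmb5, the chymotrypsin-like subunit, had 5, 7 and 6 counts in cdKO overload against 2, 3 and 1 in cdKO sham, and 3, 22 and 9 in control overload against 1, 4 and 0 in control sham. In CPM, these were 7.23, 8.80 and 6.30 against 3.32, 2.94 and 1.79 in cdKO, and 5.08, 14.1 and 10.4 in control overload against 2.23, 5.04 and 0 in control sham. The CPM groups did not overlap, by a very narrow margin in control, and most of these values lay near the level of 3 counts. Psmb7, the trypsin-like subunit, had 2, 5 and 6 counts in cdKO overload against 5, 5 and 5 in cdKO sham, and 8, 14 and 8 in control overload against 2, 3 and 0 in control sham. Its CPM were 2.89, 6.29 and 6.30 in cdKO overload against 8.30, 4.90 and 8.93 in cdKO sham, which overlapped, and 13.6, 8.95 and 9.21 in control overload against 4.47, 3.78 and 0 in control sham, which did not.

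Both genes share transcript sequence with another row of the table. In GENCODE annotation of GRCm38, the last 300 bases of Psmb5 matched the processed pseudogene Gm3375 at 99.6% identity over 227 bases, and Gm3375 held 112 counts. The last 300 bases of Psmb7 overlapped Nek6, a kinase gene on the opposite strand, over 255 bases, and Nek6 held 323 counts. Without a stated strand setting, reads of Psmb7 and Nek6 cannot be told apart there, so the levels of Psmb5 and Psmb7 are uncertain. Gm3375 and Nek6 were chosen after their values were seen. Nek6 had 39.1, 32.7 and 48.3 CPM in cdKO overload against 18.3, 14.7 and 12.5 CPM in cdKO sham, and 45.7, 58.2 and 38.0 CPM in control overload against 24.6, 29.0 and 17.8 CPM in control sham. Its groups were separate in both genotypes, and it rose in cdKO (1.37 ± 0.34, adjusted p 0.00937) but did not pass in control (0.89 ± 0.33, adjusted p 0.0537). Gm3375 had 15.9, 11.3 and 17.8 CPM in cdKO overload against 8.30, 1.96 and 5.36 CPM in cdKO sham, and 10.2, 21.1 and 17.3 CPM in control overload against 11.2, 6.30 and 2.97 CPM in control sham; it did not pass in either genotype (1.58 ± 0.62 in cdKO and 1.19 ± 0.61 in control, adjusted p 0.0942 and 0.168). Of the 37 genes, 9 had at least 95% identity with another gene over at least 100 of these bases. Beside this pair, they were Psma5, Psmb3 and Psmd2 with pseudogenes of at most 19 counts, Psmd1 with Gm21972 (0 counts), Psmc3 with the antisense gene Slc39a13 (142 counts against 935 for Psmc3), and the nearly silent Psmb11 and Psmc3ip.

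**Figure D3:**
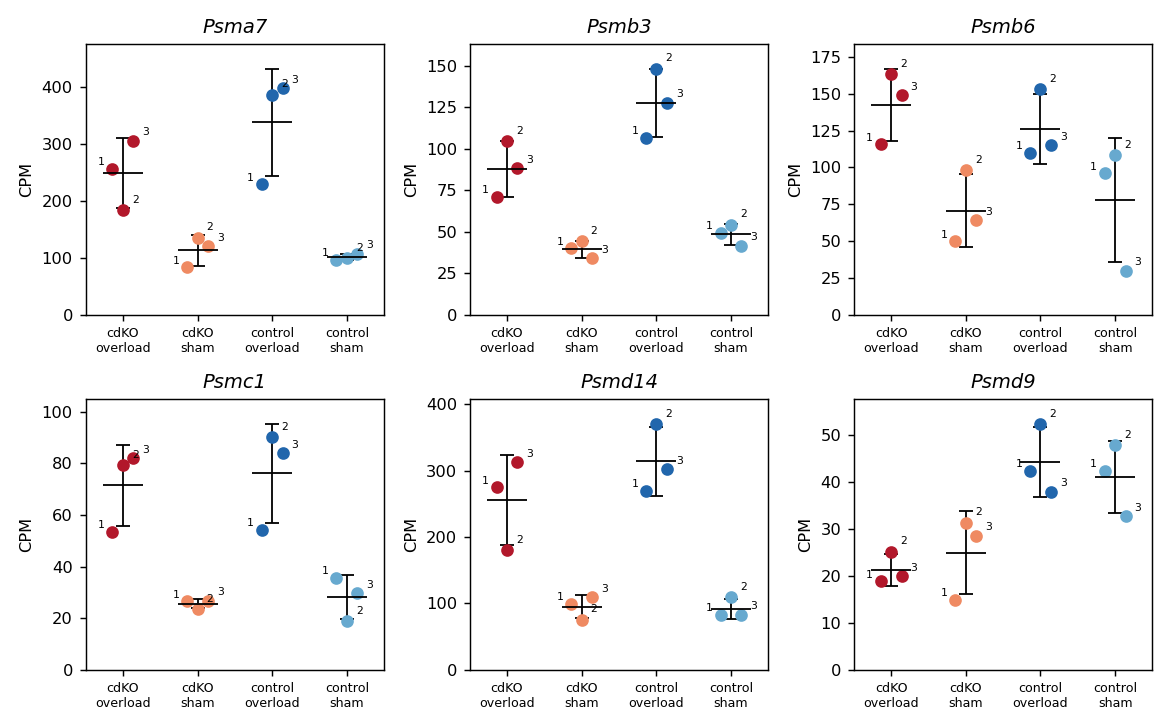
CPM (linear axes from 0) in each library for 3 core genes (Psma7, Psmb3, Psmb6), 2 regulatory particle genes (Psmc1, Psmd14) and the assembly chaperone Psmd9; points are libraries numbered by replicate and bars are the group mean ± SD (n = 3). Overloaded libraries lie above the sham libraries of the same genotype for all genes but Psmd9, for which cdKO lies below control.

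The 6 ATPases of the regulatory particle form the ring that unfolds substrates and threads them into the core. All 6 had positive log2 fold changes, 2 rose in cdKO and 3 in control. Psmc1, known in yeast as Rpt2 (chr12:100110154-100123405, plus strand), had 53.5, 79.2 and 81.9 CPM in cdKO overload against 26.6, 23.5 and 26.8 CPM in cdKO sham. It had 54.2, 90.1 and 84.0 CPM in control overload against 35.7, 18.9 and 29.7 CPM in control sham. The sham libraries held 10 to 24 counts each, and no group overlapped its counterpart. Psmc1 rose by nearly the same amount in both genotypes, 1.46 ± 0.31 SE in cdKO and 1.46 ± 0.32 SE in control (adjusted p 0.00251 and 0.00176).

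Psmc2 (Rpt1 in yeast) had 139, 109 and 163 CPM in cdKO overload against 74.7, 74.5 and 89.3 CPM in cdKO sham, and 105, 238 and 174 CPM in control overload against 64.8, 65.5 and 71.3 CPM in control sham. Its groups were separate in both genotypes. It rose in control (1.32 ± 0.28, adjusted p 0.00145) and missed the threshold in cdKO (0.76 ± 0.27, adjusted p 0.0633). Psmc5 (Rpt6 in yeast) had 53.5, 42.8 and 75.6 CPM in cdKO overload against 34.9, 28.4 and 21.4 CPM in cdKO sham, and 44.0, 74.8 and 72.5 CPM in control overload against 44.7, 45.3 and 32.7 CPM in control sham. It was separate in cdKO, where it rose (0.99 ± 0.32, adjusted p 0.0378), and overlapped through control overload replicate 1 in control (0.58 ± 0.31, adjusted p 0.188). Psmc3 rose in control (0.74 ± 0.25, adjusted p 0.0349) and had 0.72 ± 0.25 in cdKO. Psmc4 and Psmc6 did not pass in either genotype, with 0.78 and 0.87 in cdKO and 0.89 and 0.63 in control.

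The 11 tested non-ATPase genes encode the lid and base of the regulatory particle. Among them, 2 rose in cdKO and 6 in control. Psmd14, the metalloprotease that cuts the ubiquitin chain from the substrate (chr2:61711694-61800376, plus strand), gave the smallest p of all members in both genotypes. It had 275, 179.8 and 313 CPM in cdKO overload against 99.6, 75.5 and 109 CPM in cdKO sham, and 269, 371 and 303 CPM in control overload against 82.7, 109.6 and 83.2 CPM in control sham. The lowest overloaded library, cdKO replicate 2, was still above the highest sham library. Psmd14 rose by 1.42 ± 0.26 SE in cdKO and by 1.69 ± 0.27 SE in control (adjusted p 0.000884 and 6.85e-05).

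Psmd7 encodes the partner that forms a dimer with Psmd14. It had 88.3, 98.1 and 107 CPM in cdKO overload against 59.8, 73.5 and 33.9 CPM in cdKO sham, and 91.5, 140.0 and 148 CPM in control overload against 40.2, 52.9 and 59.4 CPM in control sham. The groups were separate in both genotypes, and Psmd7 passed in control alone (1.27 ± 0.29, adjusted p 0.00266, against 0.75 ± 0.28, adjusted p 0.0761, in cdKO). Psmd3, a scaffold subunit of the lid, had 43.4, 55.3 and 70.3 CPM in cdKO overload against 31.5, 33.3 and 32.1 CPM in cdKO sham, and 72.9, 89.5 and 100.1 CPM in control overload against 40.2, 35.3 and 38.6 CPM in control sham. Its groups were separate as well, with 0.77 ± 0.28 in cdKO (adjusted p 0.0663) and a rise of 1.16 ± 0.28 in control (adjusted p 0.00392). Psmd12, another lid scaffold, had 44.9, 31.4 and 45.1 CPM in cdKO overload against 33.2, 32.4 and 30.4 CPM in cdKO sham, and 62.7, 61.4 and 43.7 CPM in control overload against 20.1, 25.2 and 14.9 CPM in control sham. It overlapped in cdKO (0.31 ± 0.30, adjusted p 0.561) and was separate in control, where it rose (1.34 ± 0.32, adjusted p 0.00395).

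Psmd1, a scaffold subunit of the base, rose in both genotypes (0.79 ± 0.26 in cdKO and 0.99 ± 0.26 in control, adjusted p 0.0434 and 0.00844), with 103 to 166 CPM in cdKO overload against 74.7 to 83.3 CPM in cdKO sham and 125 to 181 CPM in control overload against 60.3 to 97 CPM in control sham. Psmd6, a lid subunit, rose in control (1.41 ± 0.35, adjusted p 0.00469) and had 0.93 ± 0.34 in cdKO. Psmd2, the base subunit that serves as a dock for substrate shuttles, had the largest standard errors among the non-ATPase genes. It had 70.9, 40.2 and 67.2 CPM in cdKO overload against 73.0, 29.4 and 39.3 CPM in cdKO sham, and 25.4, 112 and 109 CPM in control overload against 24.6, 23.9 and 56.5 CPM in control sham. Both pairs overlapped, and the values were 0.33 ± 0.50 in cdKO and 1.30 ± 0.53 in control (adjusted p 0.736 and 0.0921). Psmd4, a ubiquitin receptor, and Psmd8, Psmd11 and Psmd13 did not pass in either genotype, with log2 fold changes of 0.43 to 0.80 in cdKO and 0.40 to 0.73 in control.

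The assembly chaperones hold the ATPases during assembly of the base. Psmd10 (gankyrin) had 12, 14 and 14 counts in cdKO overload against 6, 5 and 3 in cdKO sham, and 8, 41 and 13 in control overload against 3, 2 and 2 in control sham. In CPM these were 17.4, 17.6 and 14.7 against 9.96, 4.90 and 5.36 in cdKO, and 13.6, 26.2 and 15.0 in control overload against 6.70, 2.52 and 5.94 in control sham, without overlap. It rose in control (1.94 ± 0.60, adjusted p 0.021) and did not pass in cdKO (1.28 ± 0.54, adjusted p 0.119). The filter favoured the separation and the rise of Psmd10 as well. Psmd9 stood apart from the other members. It had 18.8, 25.2 and 19.9 CPM in cdKO overload against 14.9, 31.4 and 28.6 CPM in cdKO sham, and 42.4, 52.4 and 38.0 CPM in control overload against 42.4, 47.9 and 32.7 CPM in control sham. Both pairs overlapped (-0.29 ± 0.34 in cdKO and 0.03 ± 0.31 in control, adjusted p 0.649 and 0.956). Psmd5 had 0.37 ± 0.35 in cdKO and 0.69 ± 0.34 in control and did not pass.

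Across the genotypes, 6 genes rose with overload in both (Psma7, Psmb2, Psmb3, Psmc1, Psmd1 and Psmd14), which is 66.7% of the 9 called in cdKO and 35.3% of the 17 called in control. The fold change was larger in control for 22 of 32 genes and larger in cdKO for 10. Over the 32 genes, the fold changes in cdKO and control correlated with a Pearson r of 0.562 and a Spearman rho of 0.397. The 32 include Psma4 and Psmd10, whose rise the filter favoured in both genotypes, and the correlation without them was not calculated. The pair of contrasts shares no library, but genes are not independent replicates and all of them share the same libraries within a contrast. Whether overload acted differently in cdKO was tested by the interaction. It called 0 of 32 genes, and 0% of all 8161 genes. Psmd12 alone had an unadjusted p under 0.05 (-1.03 ± 0.44, p 0.0281, adjusted p 0.925), and Psma6 (-0.68 ± 0.43, adjusted p 0.94) and Psmd2 (-0.98 ± 0.73, adjusted p 0.947) followed by p or by size. DESeq2 and limma voom also called 0. The interaction was below 0 for 22 of 32 genes with a median of -0.23 (all genes 0.02). The median of the regulatory genes turned from below to above 0 with the Y-linked covariate, at 0.17 against -0.20 without it. The standard errors of single genes in the interaction ran from 0.36 (Psmd11) to 0.83 (Psmd10). Psmd12, at -1.03, exceeded in size the median overload effects of 0.78 and 0.94 and did not pass. Differences as large as the overload effect itself could thus go uncalled.

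Between genotypes under overload, none of the 32 genes passed (edgeR quasi-likelihood test), against 0.0368% of all tested genes. DESeq2 and limma voom called 0 as well. The log2 fold change of cdKO against control was below 0 for 28 of 32 genes, with a median of -0.26 (all genes 0.03), -0.22 for core and -0.29 for regulatory genes. Before adjustment, p was under 0.05 for 3 genes. Psmd9 gave the largest difference, with 18.8 to 25.2 CPM in cdKO against 38.0 to 52.4 CPM in control (-1.01 ± 0.32, p 0.00376, adjusted p 0.444). Psmd3 had 43.4 to 70.3 CPM in cdKO against 72.9 to 100.1 CPM in control (-0.57 ± 0.25, adjusted p 0.668), and Psmb3 had 70.9 to 104 CPM against 107 to 148 CPM (-0.49 ± 0.23, adjusted p 0.706). In 5 of the 32 tested genes every cdKO library was below every control library, against 7.14% of all tested genes, and in 0 of 32 every cdKO library was above. The median depended on control overload replicate 2, without which it was -0.0047 for the core and -0.10 for the regulatory genes.

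In sham muscle, cdKO and control were closer. None of the 32 genes passed (edgeR quasi-likelihood test; DESeq2 and limma voom also 0), against 0.0123% of all tested genes. The log2 fold change was above 0 for 14 genes and below 0 for 18, with a median of -0.07 (all genes 0.01). In 2 of the 32 genes (Psmd3 and Psmd9) every cdKO library was below every control library, against 5.09% of all tested genes. In 2 others (Psmc2 and Psmd12) every cdKO library was above, against 4.58%. These shares are near those of all tested genes. Psmd9 was again lower in every cdKO library, with 14.9 to 31.4 CPM in cdKO against 32.7 to 47.9 CPM in control (-0.69 ± 0.33, adjusted p 0.999), and was the only gene with an unadjusted p under 0.05. Psmd12 had 30.4 to 33.2 CPM in cdKO against 14.9 to 25.2 CPM in control (0.63 ± 0.35, adjusted p 0.999). Across both loads, all 6 cdKO libraries thus had less Psmd9 than all 6 control libraries, although neither comparison passed over all genes. Psmd9 was singled out as the largest difference among the 32 genes, and the share of all genes with this pattern was not counted. The annotated gene Gm26745 lies antisense to an exon of Psmd9, and without a stated strand setting their reads cannot be told apart.

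**Figure D4:**
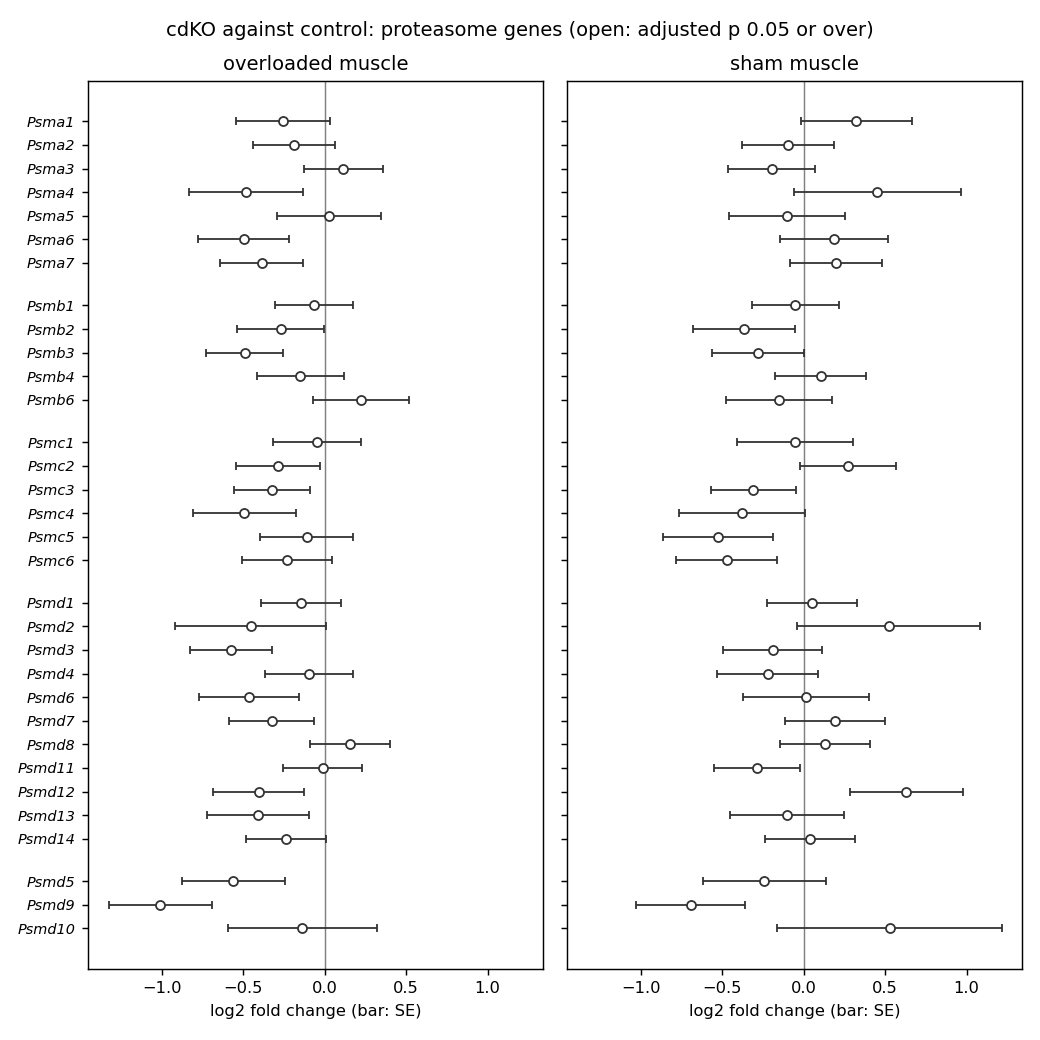
Log2 fold change (x axis, bars ± SE) of the 32 tested proteasome genes for cdKO against control in overloaded muscle (left) and sham muscle (right), grouped by particle as in the overload plot; all points are open because none passed an adjusted p under 0.05. Under overload 28 of 32 points lie below 0 and in sham muscle 18 do, with Psmd9 lowest in both (-1.01 and -0.69).

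The immunoproteasome subunits replace the constitutive catalytic ones during assembly, and Psmb8 fell with overload where constitutive genes rose. Psmb8 (replacing Psmb5) had 13, 13.8 and 8.40 CPM in cdKO overload against 28.2, 39.2 and 17.9 CPM in cdKO sham, and 15.2, 9.59 and 10.4 CPM in control overload against 20.1, 25.2 and 29.7 CPM in control sham. Every overloaded library was below every sham library. Psmb8 fell in both genotypes (-1.35 ± 0.40 in cdKO and -1.19 ± 0.42 in control, adjusted p 0.0268 and 0.044), and the call was lost under 7 of 24 alternatives in cdKO and under 16 of 24 in control. All its sham libraries exceeded the filter's limit of 13.5 CPM, but among overloaded libraries only those with 13.8 and 15.2 CPM did. A fall of Psmb8 was thus favoured by the filter. Psmb10 (replacing Psmb7) had 10.1, 18.9 and 18.9 CPM in cdKO overload against 18.3, 54.9 and 21.4 CPM in cdKO sham, and 15.2, 19.8 and 13.8 CPM in control overload against 29.0, 29.0 and 23.8 CPM in control sham. Its groups overlapped in cdKO and were separate in control, and it did not pass in either (-1.05 ± 0.40 and -0.78 ± 0.42, adjusted p 0.0836 and 0.188). Psmb9 (replacing Psmb6) had from 1 to 10 counts in each library, too few for a test.

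As a share of the counts of the 6 catalytic genes, Psmb8, Psmb9 and Psmb10 together held 19.4%, 18.4% and 15.8% in cdKO overload against 44.8%, 49.5% and 39.1% in cdKO sham. In control they held 20.8%, 14.8% and 17% under overload against 33.3%, 35.4% and 68.8% in sham muscle. All overloaded libraries were below all sham libraries, and the genotypes overlapped under either load. The highest share, 68.8% in control sham replicate 3, had an exact 95% interval of 50% to 83.9%, which covers counting error only. The constitutive part of these counts came mostly from Psmb6, since Psmb5 and Psmb7 had few. The levels of Psmb5 and Psmb7 are uncertain, as given above, so the size of each share is uncertain too.

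**Figure D5:**
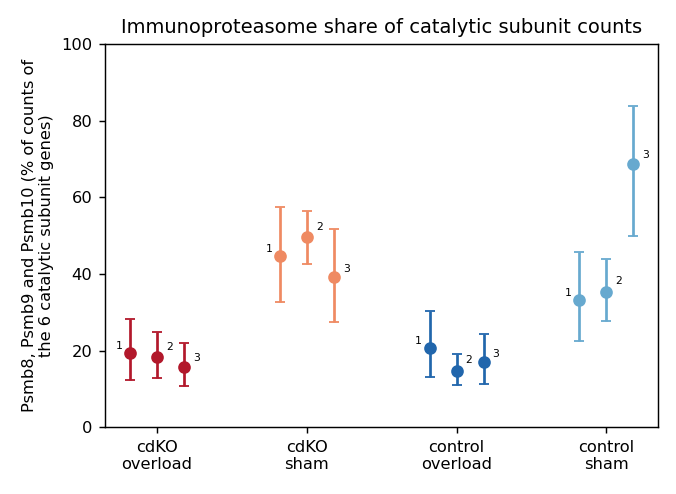
Share of the counts of the 6 catalytic subunit genes (Psmb5 to Psmb10) that came from Psmb8, Psmb9 and Psmb10 in each library, in percent; points are libraries numbered by replicate and bars are exact 95% binomial intervals. Overloaded libraries lie between 14.8% and 20.8% and sham libraries between 33.3% and 68.8%. The levels of Psmb5 and Psmb7, and so the size of each share, are uncertain.

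Genes that work with the constitutive proteasome are given by list, and the counts stand against 6.37% of all tested genes that rose in cdKO and 10.6% in control. In lists this small, a count of 0 or 1 is near those shares and is no result about the list. Of 5 genes for alternative caps and the inhibitor, Psme3, which encodes the nuclear cap PA28 gamma, rose in both genotypes (1.17 ± 0.27 in cdKO and 1.19 ± 0.27 in control, adjusted p 0.00531 and 0.00244). It had 232, 179.8 and 293 CPM in cdKO overload against 133, 74.5 and 102 CPM in cdKO sham, and 285, 256 and 303 CPM in control overload against 96.1, 149 and 101 CPM in control sham. The other 4 did not pass, and these include Psme1 and Psme2, the interferon-inducible cap subunits (0.03 and 0.05 in cdKO, -0.26 and 0.45 in control). Of 4 tested chaperones of core assembly, 0 rose in cdKO and 2 in control, Psmg2 (1.63 ± 0.50, adjusted p 0.021) and Pomp (0.74 ± 0.25, adjusted p 0.0308). Of 10 other regulatory particle parts and adaptors, 0 rose in cdKO and 5 in control, with the smallest p for Uchl5, a deubiquitinase of the particle (1.98 ± 0.40, adjusted p 0.000895, against 0.22 ± 0.38, adjusted p 0.774, in cdKO). Adrm1, the ubiquitin receptor that binds Uchl5, rose by 1.80 ± 0.41 in control (adjusted p 0.00238) and had 0.97 ± 0.36 in cdKO (adjusted p 0.0737). Zfand2a, an arsenite-inducible adaptor, rose by 1.74 ± 0.53 in control (adjusted p 0.0202). Psmg2, Adrm1 and Zfand2a exceeded the filter's limit of 13.5 CPM in every control overload library. In no control sham library did they exceed it (at most 12.6, 11.2 and 11.9 CPM). Their rise in control was thus favoured by the filter. Psmg2 had only 1 to 10 counts in the control sham libraries. The interaction of Uchl5 did not pass (-1.76 ± 0.56, adjusted p 0.645). Ubqln1 was the only one of 5 tested shuttle factors to rise, in control (1.03 ± 0.29, adjusted p 0.0111).

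None of the transcription factor genes known to drive proteasome genes passed as higher. Of 9 such genes and their processing enzymes, 0 rose in either genotype, which is near the 6.37% of all tested genes in cdKO and 10.6% in control and so is no result about these factors. Nfe2l1, which induces proteasome genes when proteolysis is limiting, had 53.5, 65.4 and 45.1 CPM in cdKO overload against 43.2, 61.8 and 55.4 CPM in cdKO sham, and 59.3, 42.8 and 57.5 CPM in control overload against 55.8, 52.9 and 29.7 CPM in control sham. The groups overlapped (-0.02 ± 0.28 in cdKO and 0.08 ± 0.29 in control, adjusted p 0.982 and 0.866). Nfe2l2 overlapped as well (-0.27 ± 0.28 and -0.23 ± 0.29, adjusted p 0.589 and 0.59). Maff, a small Maf partner, fell in control (-1.13 ± 0.27, adjusted p 0.00408) and did not pass in cdKO. RNA levels say nothing of the processing or nuclear entry of these factors.

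Upstream and beside the proteasome, the p97 unfoldase and the CCT chaperonin, which folds actin and tubulin, were measured too, again against 6.37% of all tested genes that rose in cdKO and 10.6% in control. Of 8 p97 genes, 1 rose in cdKO, the cofactor Nsfl1c (1.256 ± 0.364, adjusted p 0.0235), and 3 rose in control. These were Vcp, the unfoldase itself (1.30 ± 0.25, adjusted p 0.000479), Nploc4 and Nsfl1c. All 8 CCT genes rose in control and 4 in cdKO (Cct2, Cct5, Cct6a and Cct8). Of 7 tested genes of the COP9 signalosome, a complex related to the lid, 0 rose in cdKO and 3 in control (Cops5, Cops6 and Cops7b). In lists this small, the cdKO counts of 1 p97 gene and 0 COP9 genes are near the share of all tested genes. Uba1, the main ubiquitin-activating enzyme, rose in control (0.78 ± 0.26, adjusted p 0.0341) and did not pass in cdKO. Of 24 tested ubiquitin conjugating enzymes, 1 rose in cdKO (Ube2k, 0.78 ± 0.22, adjusted p 0.0232). In control, Ube2m (1.55 ± 0.34, adjusted p 0.00203) and Ube2n (0.84 ± 0.30, adjusted p 0.0446) rose, and Ube2l6, an interferon-inducible conjugating enzyme, fell (-1.80 ± 0.45, adjusted p 0.00552). These counts are near the shares of all tested genes. The median log2 fold change of the conjugating enzymes was 0.28 in cdKO and 0.10 in control, against 0.78 and 0.94 for the constitutive proteasome genes.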

How the data were processed

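The authors deposited raw counts per gene for 12 libraries, as whole numbers with unequal library totals. Per the labels' protocols, 1000 cells were sorted into each tube and libraries followed a published low-input method that tags 3′ ends (CEL-Seq2). The submitters' processing notes name build GRCm38, HISAT2 2.2.1, Trim Galore 0.6.6, DESeq2 1.26.0 and featureCounts 2.0.1. Strand setting, annotation release and use of molecular identifiers were not given in the sources used here.

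Genes were tested with edgeR 4.0.16 in R 4.3.3 (filterByExpr, TMM scaling, robust quasi-likelihood fit of all 4 groups with no covariate, two-sided, Benjamini-Hochberg adjustment over 8161 genes, threshold 0.05), in 5 contrasts, the interaction included. Each standard error is the size of the log2 fold change over the square root of F. CPM in the text use library totals. Lists were described by counts and medians. Groups and replicate numbers came from the labels. Deviations from group means correlated at r -0.23 to 0.27 (median 0.03) over 18 same-numbered pairs of libraries. Over 36 other pairs from different groups, r was -0.31 to 0.33 (median -0.02). An r over 0.1 occurred in 6 of the 18 and in 6 of the 36 pairs. The 12 libraries were no duplicates of each other (chi-square per degree of freedom 3.14 to 22.9 within groups).

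The proteasome genes and the other lists were chosen with earlier results of these data known. Given with every library's value were, per comparison, up to 8 called members by p, and the members leading by fold change or p, plus Psmb5, Psmb6 and Psmb7. From other lists up to 3 called genes by p were named with values. Psma1, Psmb4, Psmc3, Psmd1, Psmd6 and other members named by fold change alone complete the account.

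Coordinates and the last 300 transcript bases came from a GENCODE annotation of GRCm38. Alternatives were DESeq2 1.42.0, limma voom 3.58.1, other scalings, no filter, a non-robust fit, thinned counts, only the groups compared, a replicate block, a Y-linked covariate and each library left out. The test was tried on simulated counts. A further marker list is not reported here.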

Additional observations from a re-analysis of the deposited data

How the results depend on the processing

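No gene named here that passed the threshold changed direction in any alternative. The number of members that rose with overload in control (17) was 7 with the Y-linked covariate and 11 to 25 with each library left out. In cdKO (9) it was 14 with limma voom, 16 without control overload replicate 1 and cdKO overload replicate 2 (an alternative chosen after seeing the data), and 3 to 15 with each library left out. With each library left out, the median log2 fold change of the core ran from 0.71 to 0.995 for overload in cdKO, from 0.76 to 1.19 for overload in control, from -0.42 to -0.0047 for cdKO against control in overloaded muscle, from -0.12 to 0.22 in sham muscle and from -0.39 to -0.0399 for the interaction. The interaction median of the regulatory genes, -0.20, was 0.17 with the Y-linked covariate. Without Psma5, Psmb5, Psmb6 and Psmb7, the members whose symbol has a pseudogene row of the same name, summed core CPM was 1284 in cdKO overload, 728 in cdKO sham and 731 in control sham. On TMM-scaled library sizes it was 962 in cdKO sham, and the regulatory sum in control sham was 1024. Of these sums, only those that moved by at least the SD of their group are given, so control overload is left out. In the fit with a replicate block, 8 members rose in cdKO and 17 in control, 7 and 16 of them shared with the calls without it, and 0 passed elsewhere. The causes of these shifts were not tested.

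The sham libraries, with as few as 336437 counts, limit what can be read: genes such as Psmb5, Psmb7, Psma4 and Psmd10 had 10 counts or fewer in several of them. Counting intervals leave out variation between animals, and the fit for only the groups compared was not run for the interaction.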
